A study of Mus musculus with 10 samples.

Results

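The miR-26 and miR-101 families were followed in CD43- splenic B-cells through 5 mature microRNAs, namely mmu-miR-26a-5p, mmu-miR-26b-5p, mmu-miR-26b-3p, mmu-miR-101a-3p and mmu-miR-101b-3p (the mouse prefix mmu is left out hereafter). They were taken by name, as products of miR-26a, miR-26b, miR-101a and miR-101b, which are known to target Ezh2, from the 2015 microRNA rows (1302 mature microRNAs and 713 hairpin transcripts) of a small RNA count table with 6968 rows. All 5 passed the filters on low counts, which left 720 microRNA rows in the comparisons of wild-type (wt) and 3'RR-deficient cells and 988 rows in those that included Eµ-deficient cells.

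The 3'RR, the regulatory region at the 3' end of the IgH locus, and Eµ, the enhancer upstream of its constant genes, are cis-acting enhancers of immunoglobulin heavy chain transcription. Cells were taken from wt animals and from animals without the 3'RR or without Eµ. By the sample labels they were kept for 2 days in medium alone (NS, non stimulated) or in medium with 5 µg/ml of lipopolysaccharide (LPS), a B-cell mitogen. Per the study's methods the mice were adult males and females on a 129 background, and the Eµ line lacks Eµ together with its matrix attachment regions (EµMAR). The enhancer deletions were carried in the germline and so in all cells of the animals. Each library came from material pooled from 2 mice. For both wt and 3'RR-deficient cells there were 2 NS and 2 LPS libraries. For Eµ-deficient cells there was 1 of each, so that no value of a single Eµ-deficient condition has a replicate. All groups shared the CD43- selection and, by the labels, the time in culture. The paper's methods, for total RNA, instead describe cells taken before and after stimulation, and the paper calls the former resting. If the NS cells here were not cultured, effects of LPS and of culture cannot be told apart.

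A microRNA is a short RNA that is cut from a hairpin precursor and guides the Argonaute silencing complex to complementary sites, mostly in the 3' untranslated region (UTR) of messenger RNAs. Bases 2 to 8 of the microRNA, the seed, make most of that pairing, and microRNAs with 1 seed form a family. miR-26 and miR-101 are known as repressors of Ezh2, the histone H3 lysine 27 methyltransferase of Polycomb repressive complex 2, which germinal centre B-cells need. miR-26a is further known as one of the microRNAs that Myc represses in lymphoma cells.

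The sequences are shown because the families differ in the very bases that define them. They are RefSeq mature sequences (build GRCm38.p6), 5′ to 3′, with the seed in capitals.
miR-26a-5p: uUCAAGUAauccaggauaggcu
miR-26b-5p: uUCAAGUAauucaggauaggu
miR-26b-3p: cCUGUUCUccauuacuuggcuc
miR-101a-3p: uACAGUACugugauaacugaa
miR-101b-3p: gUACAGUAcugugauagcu

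miR-26a-5p and miR-26b-5p carried the same seed, which no other mature microRNA among the 1093 mature rows with a RefSeq sequence had. Counted from the 5′ end of miR-26a-5p, they differed by C11U and C21U within 21 aligned positions, outside the seed. miR-26b-3p, cut from the opposite side of the miR-26b hairpin, had an unrelated seed that it shared with miR-26a-2-3p, miR-6932-3p and miR-7039-3p. miR-101a-3p and miR-101b-3p were the same sequence shifted by 1 base: with that offset, 18 positions aligned and the pair differed only by A16G, counted on miR-101a-3p. Because the annotated 5′ ends differ, the formal seed of miR-101b-3p lay 1 base upstream and neither seed was found in another mature row. GC content was 40.9% for miR-26a-5p, 33.3% for miR-26b-5p, 33.3% for miR-101a-3p and 42.1% for miR-101b-3p.

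The miR-26 genes sat inside genes of the small C-terminal domain phosphatases, which act on RNA polymerase II and other substrates (GENCODE M21 on GRCm38). Mir26b (chr1:74394310-74394394, plus strand) lay in an intron of Ctdsp1 and Mir26a-1 (chr9:119031796-119031885, plus strand) in an intron of Ctdspl. Mir26a-2 (chr10:126995530-126995613, plus strand) lay within Ctdsp2, in an intron apart from 1 base that overlapped an annotated exon. The mature miR-26a-5p is the same at its loci on chromosomes 9 and 10, so its count cannot be divided between them. Mir101a (chr4:101346945-101347027, minus strand) lay in an exon of the long noncoding RNA E130102H24Rik, and Mir101b (chr19:29135279-29135375, plus strand) in an intron of Rcl1. The host and the microRNA were on the same strand at all 5 loci. The hairpins of miR-26b and of the miR-101 pair are shown with both annotated arms in capitals, since the balance of the arms is described below.
Mir26b: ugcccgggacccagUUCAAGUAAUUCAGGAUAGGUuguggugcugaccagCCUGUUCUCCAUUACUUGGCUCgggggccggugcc
Mir101a: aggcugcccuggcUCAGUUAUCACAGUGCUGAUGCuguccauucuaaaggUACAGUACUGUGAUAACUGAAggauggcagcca
Mir101b: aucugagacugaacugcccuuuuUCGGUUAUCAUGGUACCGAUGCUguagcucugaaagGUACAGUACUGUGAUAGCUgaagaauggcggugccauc

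The 3' UTR of Ezh2 (transcript ENSMUST00000081721.12, 402 bases, chromosome 6, minus strand) held matches to the seeds of both families. A match is a stretch of 7 bases complementary to seed positions 2 to 8, searched on the transcript strand as TACTTGA for miR-26, GTACTGT for miR-101a-3p and TACTGTA for miR-101b-3p. Each match stands in capitals within its surroundings.
miR-26, chr6:47530287-47530293: ttgaataaagaaTACTTGAact
miR-101a-3p, chr6:47530476-47530482: caggaaccttgaGTACTGTggg
miR-101a-3p, chr6:47530421-47530427: tgaatttgcaaaGTACTGTaac
miR-101b-3p, chr6:47530420-47530426: gaatttgcaaagTACTGTAaca
The last of these overlapped the second miR-101a-3p match, so that 1 stretch served both annotations. Of 20715 annotated 3' UTRs, 9.1% held the miR-26 match, 8.8% the miR-101a-3p match and 11.4% the miR-101b-3p match. Among the 1854 3' UTRs with 80% to 120% of the length of that of Ezh2, the shares were 3.2%, 2.7% and 2.8%. These matches describe letters only, and no Ezh2 messenger RNA was measured in these libraries.

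The libraries held 3482540 to 18144016 counts, of which 51.4% to 82.1% were microRNA counts. The second NS libraries of wt and of 3'RR-deficient cells were the shallowest, with 3482540 and 3756662 counts, and they stood apart from the first ones in the same way. Across 720 features the log2 difference of the second library from the first correlated between wt NS and 3'RR-deficient NS with r = 0.649 (features of the same 4 libraries, not independent), against 0.11 between wt LPS and 3'RR-deficient LPS. The tests that rest on NS cells are therefore given with and without these libraries. The 5 B lymphocyte microRNAs fixed as markers (miR-150-5p, miR-142a-3p, miR-142a-5p, miR-155-5p and miR-181a-5p) were counted in all 10 libraries, with a summed level of 84736 to 242695 CPM (counts scaled to a common library size). They did not move together between the NS libraries. miR-142a-5p measured 168504 CPM in wt NS library 1, 8078 in library 2, and in 3'RR-deficient NS 82295 and 6872, while miR-142a-3p measured 9100, 290.7, 3236 and 259.6 in this order. miR-150-5p (37853 and 61853 in wt, 46372 and 57203 in 3'RR-deficient NS) and miR-181a-5p (21331 and 48186, 28644 and 51342) were higher in the second libraries.

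The miR-26 family was among the most abundant of the cell, and its 2 guide strands reached 12.1% (wt), 13.3% (3'RR-deficient) and 11.01% (Eµ-deficient) of all microRNA counts in the first NS libraries. In the second NS libraries their share was 4.62% in wt (95% Wilson interval 4.60% to 4.65%) and 4.82% in 3'RR-deficient cells (4.80% to 4.85%). With LPS it was 3.92% and 5.23% in wt, 6.45% and 4.14% in 3'RR-deficient and 5.30% in Eµ-deficient cells. The intervals cover counting error only, since reads amplified by PCR are not independent molecules, and they were far narrower than the gap between libraries of 1 group. The second NS libraries thus lay in the range of the LPS libraries, and the first NS libraries lay above all others.

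Levels are given as CPM of the microRNA class after TMM scaling (trimmed mean of M values). The mature sequences are 19 to 22 bases long, and levels were not divided by length. Effects of length, size selection and the efficiency of adapter ligation on the counts were not tested, and the order of levels is that of the counts.

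miR-26a-5p, the guide strand from 2 loci, measured 90421 and 20916 CPM in the wt NS libraries 1 and 2, 90799 and 22130 in 3'RR-deficient NS and 56629 in Eµ-deficient NS. With LPS it measured 20393 and 32786 CPM in wt, 36385 and 26209 in 3'RR-deficient and 23511 in Eµ-deficient cells. The first NS library of each genotype was above all 5 LPS libraries, and both second NS libraries were within their range. miR-26a-5p ranked from 2 to 12 by level among mature microRNAs in the 10 libraries.

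miR-26b-5p, its partner in seed from the Ctdsp1 intron, measured 69238 and 16701 CPM in wt NS, 73490 and 17999 in 3'RR-deficient NS and 47087 in Eµ-deficient NS. With LPS it measured 12235 and 28417 CPM in wt, 26380 and 23380 in 3'RR-deficient and 21263 in Eµ-deficient cells. The pattern was that of miR-26a-5p, with the first NS libraries high and the rest overlapping.

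miR-26b-3p, the passenger strand of the same hairpin, was far less abundant than its partner. It measured 26 and 14.6 CPM in wt NS, 28.5 and 31.2 in 3'RR-deficient NS and 13.7 in Eµ-deficient NS. With LPS it measured 13.3 and 15.3 CPM in wt, 16.3 and 10.8 in 3'RR-deficient and 13.4 in Eµ-deficient cells. Both 3'RR-deficient NS libraries were above all LPS libraries, whereas wt NS library 2 and the Eµ-deficient NS library were within the LPS range. These levels rested on 40 to 244 counts per library.

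miR-101a-3p, the guide strand of Mir101a, measured 4211 and 209.5 CPM in wt NS, 1734 and 218.8 in 3'RR-deficient NS and 1145 in Eµ-deficient NS. With LPS it measured 2296 and 2323 CPM in wt, 1868 and 2628 in 3'RR-deficient and 1306 in Eµ-deficient cells. The second NS libraries were below all the others, and the first ones lay on both sides of the LPS libraries.

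miR-101b-3p, the guide strand of Mir101b, measured 3022 and 191.2 CPM in wt NS, 1596 and 167.3 in 3'RR-deficient NS and 1062 in Eµ-deficient NS. With LPS it measured 2297 and 2544 CPM in wt, 1973 and 2834 in 3'RR-deficient and 1196 in Eµ-deficient cells. As for miR-101a-3p, the second NS libraries were lowest and the groups overlapped. As a share of all microRNA counts, the pair made up 0.0464% and 0.0492% in the second NS libraries (lowest interval bound 0.0438%, highest 0.0522%), 0.234% to 0.548% in the first ones and 0.296% to 0.552% with LPS.

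**Figure D1:**
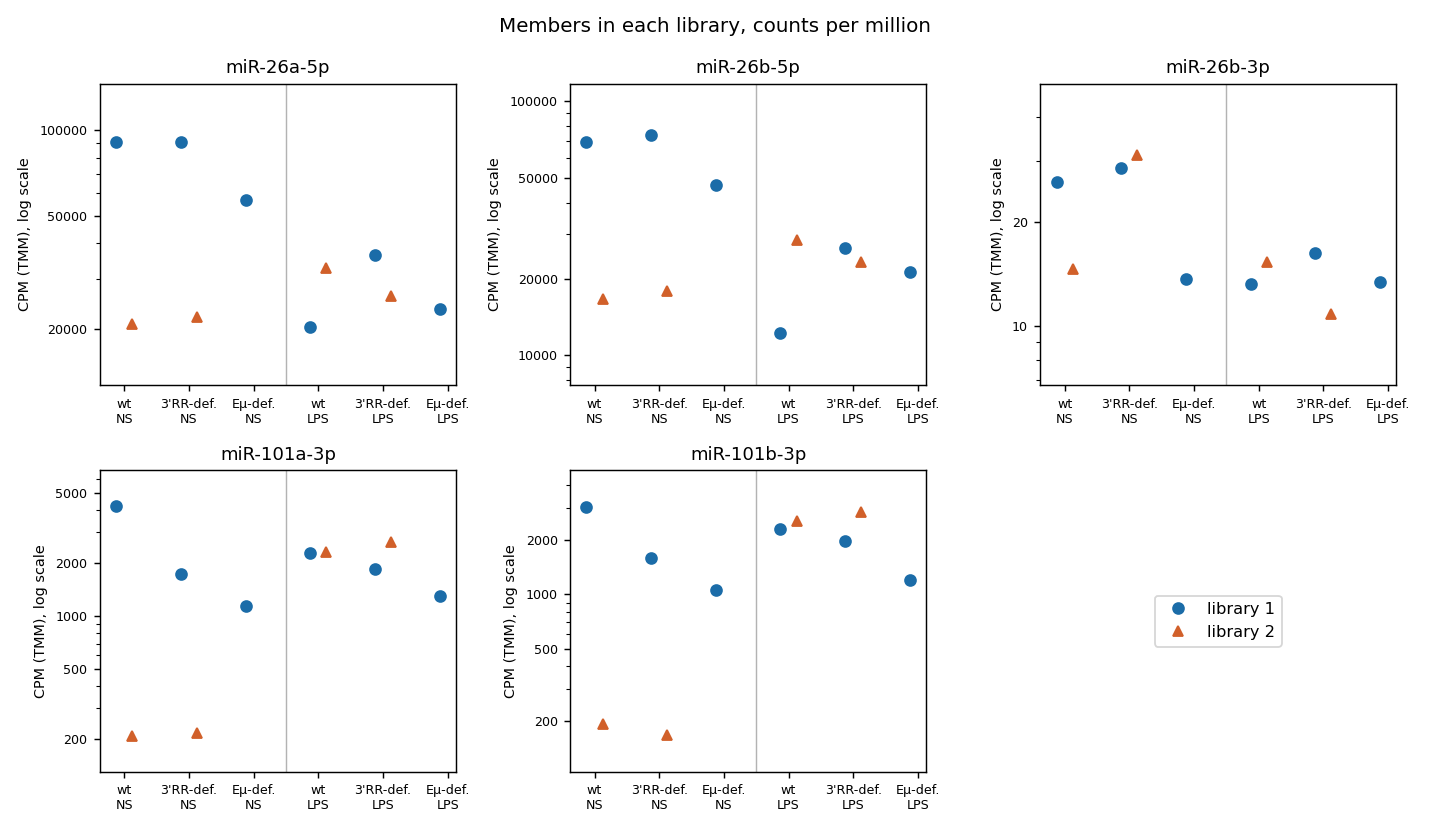
Level of each member (CPM after TMM scaling, log axes with different ranges) in the 10 libraries by genotype and condition, with library 1 as circles and library 2 as triangles. The second NS libraries of wt and 3'RR-deficient cells carry 20916 and 22130 CPM of miR-26a-5p, within the LPS range of 20393 to 36385, and the lowest miR-101a-3p and miR-101b-3p of all libraries.

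Ordered by level within a library, miR-26a-5p came first and miR-26b-5p next in all 10 libraries, followed by the miR-101 pair and then by miR-26b-3p. miR-26a-5p exceeded miR-26b-5p by 1.11 to 1.67 times (median 1.23). The order of the miR-101 pair was not fixed: miR-101a-3p to miR-101b-3p was 1.08 to 1.39 in the 5 NS libraries and 0.913 to 1.09 in the 5 LPS libraries. All 4 LPS libraries of wt and 3'RR-deficient cells lay at or below 1.00, and the Eµ-deficient LPS library, at 1.09, overlapped the NS range. Ratios of 2 counts in 1 library do not depend on how libraries are scaled, although they do depend on any other difference that treats the sequences unequally. These ratios are a description without a test.

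The balance between the families did not overlap between the conditions. It is described here without a test. Of the 988 single features, 16.1% separated the 5 LPS from the 5 NS libraries, and none of the members did so singly. That share is for single features, and how often ratios of summed features separate the conditions was not counted. The summed counts of miR-26a-5p and miR-26b-5p exceeded those of miR-101a-3p and miR-101b-3p by 22.1 and 93.8 times in wt NS, 49.3 and 104 times (103.9) in 3'RR-deficient NS and 47.0 times in Eµ-deficient NS. With LPS the ratio was 7.11 and 12.6 in wt, 16.3 and 9.08 in 3'RR-deficient and 17.9 in Eµ-deficient cells. The lowest NS library (22.1, wt NS library 1) was above the highest LPS library (17.9, Eµ-deficient), and the medians were 49.3 and 12.6. Without the second NS libraries the NS range was 22.1 to 49.3, and without the first wt and 3'RR-deficient ones 47.0 to 104, both above the LPS range. The direction was thus shared by all 3 genotypes, while the members that moved depended on the NS library: the first NS libraries had more miR-26 than the LPS libraries, and the second ones had less miR-101.

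**Figure D2:**
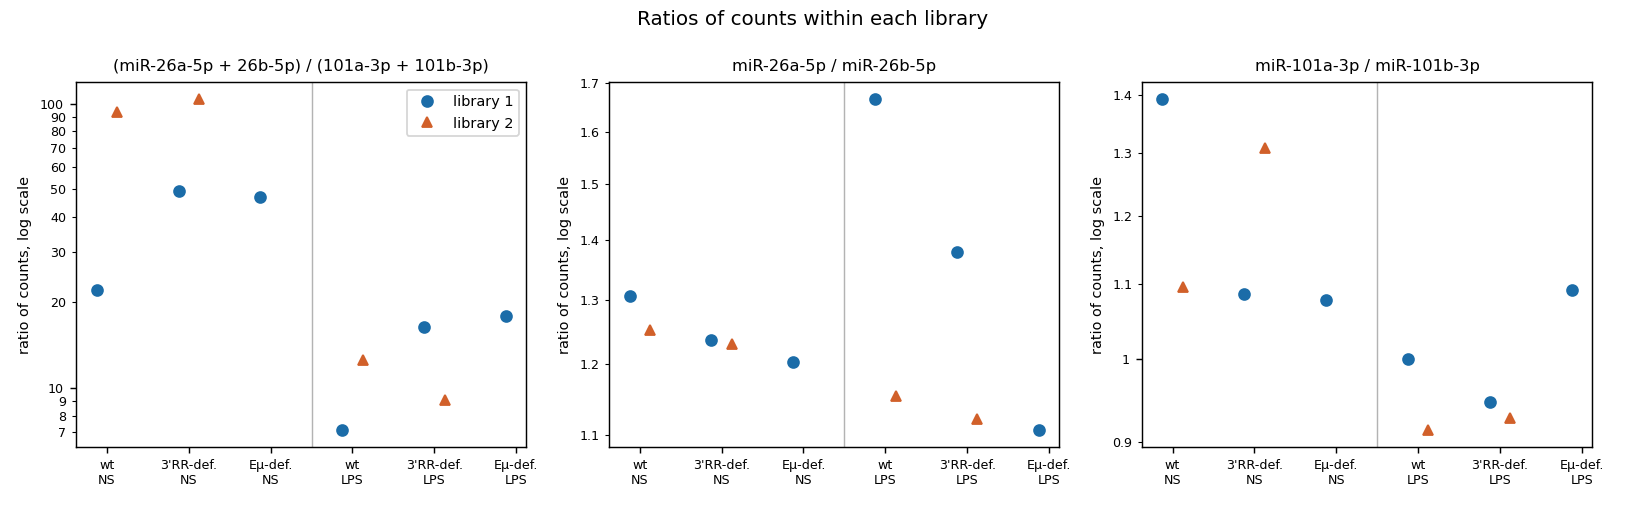
Ratio of counts within each library (log axes) for miR-26 to miR-101, miR-26a-5p to miR-26b-5p and miR-101a-3p to miR-101b-3p, with library 1 as circles and library 2 as triangles. The miR-26 to miR-101 ratio lies between 22.1 and 103.9 in the 5 NS libraries and between 7.11 and 17.9 in the 5 LPS libraries.

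The arms of the hairpins were very unequal. miR-26b-5p exceeded miR-26b-3p by 574 to 3429 times, lowest in 3'RR-deficient NS library 2 and highest in Eµ-deficient NS, with overlapping NS and LPS ranges. miR-26a-2-3p, the passenger strand of Mir26a-2, had 35 to 367 counts per library, whereas miR-26a-1-3p, that of Mir26a-1, had 0 to 6. The miR-26a-2-3p to miR-26b-3p ratio was 0.607 to 1.39 in NS and 1.03 to 2.86 in LPS libraries. miR-101a-5p had 0 to 9 and miR-101b-5p 0 to 15 counts, so the 5' arms of the miR-101 hairpins were at the edge of detection. miR-101c, whose 19 bases are contained in miR-101a-3p, had 3 to 164 counts, and reads of either could have been assigned to the other. The hairpin transcript rows held 0 to 19 counts for Mir26b, 0 to 37 for Mir101a and 0 to 74 for Mir101b.

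The response to LPS was tested first. The question was whether the 2 days of mitogenic culture changed these microRNAs, and the test was edgeR's quasi-likelihood F-test with Benjamini-Hochberg adjustment over all features, two-sided, at 0.05. With wt and 3'RR-deficient cells averaged, miR-26a-5p had a log2 change with LPS of -0.88 (SE 0.60, adjusted p = 0.326) and miR-26b-5p of -0.90 (SE 0.60, adjusted p = 0.316). The value was -0.70 (SE 0.44, adjusted p = 0.288) for miR-26b-3p, 0.71 (SE 0.84, adjusted p = 0.568) for miR-101a-3p and 1.09 (SE 0.82, adjusted p = 0.372) for miR-101b-3p. None of the 5 members passed the test, and 0 had an unadjusted p under 0.05, also with DESeq2's Wald test. Of all 720 features, 157 passed (21.8%).

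The 2 genotypes taken singly gave the same signs for these 5 members. In wt cells the log2 fold changes were -0.93 (SE 0.94) for miR-26a-5p, -0.96 (SE 0.94) for miR-26b-5p, -0.37 (SE 0.68) for miR-26b-3p, 0.21 (SE 1.22) for miR-101a-3p and 0.74 (SE 1.21) for miR-101b-3p. In 3'RR-deficient cells they were -0.82 (SE 0.94), -0.85 (SE 0.94), -1.03 (SE 0.69), 1.21 (SE 1.23) and 1.45 (SE 1.23) in the same order. Adjusted p-values by edgeR lay between 0.597 and 0.941 in wt and between 0.460 and 0.659 in 3'RR-deficient cells, where 0.694% and 0.972% of all features passed. The difference of these responses, 3'RR-deficient minus wt, ran from -0.66 (SE 0.97, miR-26b-3p) to 1.0 (SE 1.72, miR-101a-3p), and it reached adjusted p = 0.05 for 0 of the 5 members and for 0% of all features by edgeR (5 features at an unadjusted p under 0.05, and 0 adjusted by DESeq2). In the Eµ-deficient pair of single libraries, LPS minus NS was -1.27 for miR-26a-5p, -1.15 for miR-26b-5p, -0.03 for miR-26b-3p, 0.19 for miR-101a-3p and 0.17 for miR-101b-3p on the log2 scale, without replicates and without a test.

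The large standard errors came with the NS libraries. From library 1 to library 2, miR-26a-5p differed by -2.0 (log2) in wt NS and -2.07 in 3'RR-deficient NS, and miR-101a-3p by -4.21 and -3.02. miR-101b-3p differed by -3.87 and -3.29. For comparison, the SD of this difference over all features was 2.06 in wt NS and 1.82 in 3'RR-deficient NS, against 1.18 in both LPS groups. Among the LPS libraries no member differed by more than 1.07 (miR-26b-5p in wt).

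With both second NS libraries left out, the guide strands of miR-26 fell with LPS. Averaged over both genotypes, the change on the log2 scale was -1.59 (SE 0.30, adjusted p = 0.00334) for miR-26a-5p and -1.61 (SE 0.33, adjusted p = 0.00513) for miR-26b-5p by edgeR. It was -0.90 (SE 0.37, adjusted p = 0.0956) for miR-26b-3p, -0.22 (SE 0.34, adjusted p = 0.656) for miR-101a-3p and 0.18 (SE 0.32, adjusted p = 0.690) for miR-101b-3p.

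With the first wt and 3'RR-deficient NS libraries left out in their place, the miR-101 pair rose with LPS. By edgeR the change on the log2 scale was 3.52 (SE 0.39, adjusted p = 3.6e-06) for miR-101a-3p and 3.86 (SE 0.40, adjusted p = 2.2e-06) for miR-101b-3p. It was 0.51 (SE 0.32, adjusted p = 0.207) for miR-26a-5p, 0.46 (SE 0.35, adjusted p = 0.300) for miR-26b-5p and -0.58 (SE 0.52, adjusted p = 0.392) for miR-26b-3p. Each of these choices put the guide strands of a different family past the threshold, and neither can be preferred from the labels. The 2 of 5 members called stand beside 204 of 720 features without the second and 308 of 720 without the first NS libraries, so their number says nothing particular about the members. The separate fits assume that the 1 NS library left per genotype varies like the other groups.

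**Figure D3:**
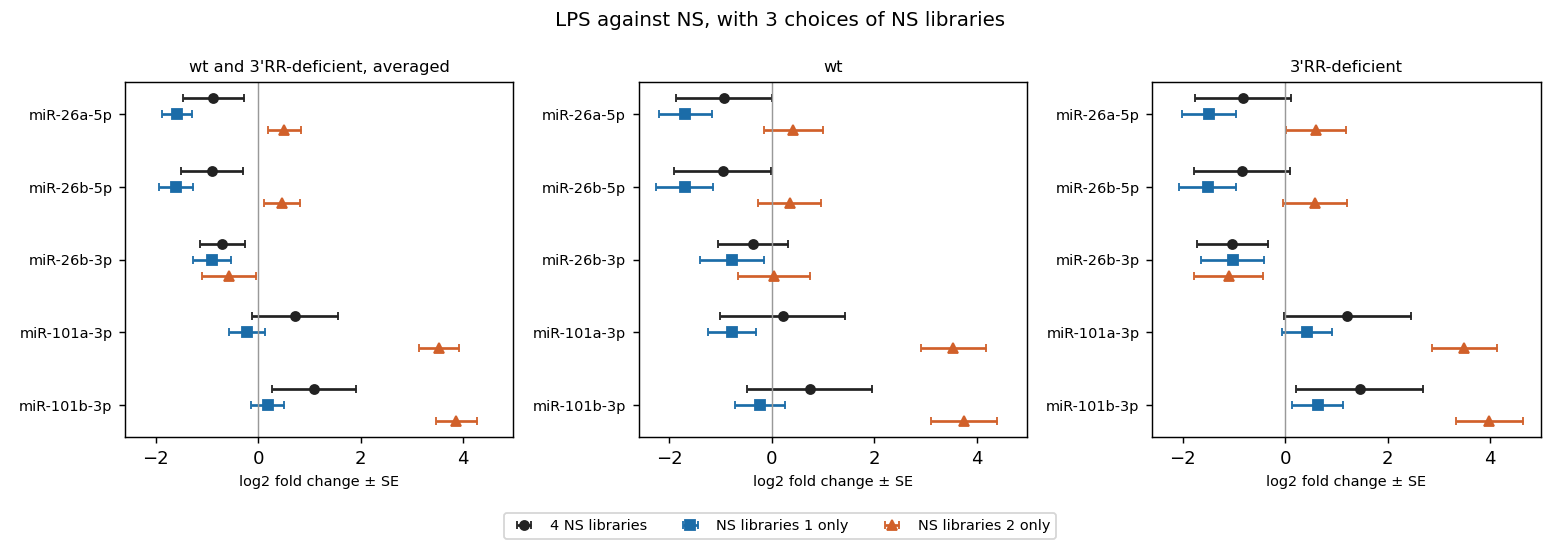
Log2 fold change of LPS against NS (± SE, edgeR) for the 5 members, averaged over wt and 3'RR-deficient cells and in each genotype, with all 4 NS libraries (circles), the first NS libraries alone (squares) and the second alone (triangles). In the average, miR-26a-5p lies at -0.88, -1.59 and 0.51, and miR-101a-3p at 0.71, -0.22 and 3.52.

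The groups were also compared by overlap. None of the 5 members separated the 5 LPS from the 5 NS libraries, against the 16.1% of features given above. With the 3 first NS libraries, 2 of the 5 did, miR-26a-5p and miR-26b-5p, both lower in all 5 LPS libraries, beside 26.1% of all features. Other measures moved with these libraries. The summed level of the 2 myeloid markers (miR-223-3p and miR-223-5p) was 1450 to 5629 CPM in the first NS libraries, 525.8 and 1156 in the second and 76.7 to 530.4 with LPS, with neither at 0. The 4 erythroid markers (miR-451a, miR-144-3p, miR-144-5p and miR-486a-5p) summed to 3424 to 10393 CPM in the first NS libraries, 2778 (wt) and 7404 (3'RR-deficient) in the second and 155.6 to 4223 with LPS, with none at 0. Within this list, miR-451a was lower in the second NS libraries than in the first (3530 and 225.6 CPM in wt, 1699 and 407.8 in 3'RR-deficient cells), and miR-486a-5p was higher (798.1 and 2516, 1045 and 6884). The 8 endothelial and stromal markers summed to 1899 to 2738 CPM in the first NS libraries, 805.5 and 1062 in the second and 572.2 to 1538 with LPS, where up to 3 of 8 were at 0, as was 1 of 8 in wt NS library 2. miR-10b-5p carried much of that sum, with 1533 to 1687 CPM in the first NS libraries, 570.4 and 719.3 in the second and 484.1 to 893.3 with LPS. The other 7 markers summed to 1051 and 235.1 CPM in wt NS libraries 1 and 2, 223.7 and 343.1 in 3'RR-deficient NS and 701.4 in Eµ-deficient NS. With LPS they summed to 74.5 to 111.2 CPM in wt and 3'RR-deficient cells and to 1025 in Eµ-deficient cells, the one genotype in which they were higher than in NS. In bulk RNA, fewer cells of a type and less of a microRNA per cell cannot be told apart, and the part of these cells in the miR-26 and miR-101 values was not tested. With an offset for GC content (497 of 607 mature features, 81.9%, had a sequence), the averaged LPS response by edgeR was -1.11 (adjusted p = 0.0299) for miR-26a-5p and -1.68 (adjusted p = 0.00338) for miR-26b-5p, both past the threshold, as were 147 of 497 features. With the library number within each condition as a block, which the labels do not tie to a shared batch, it was -1.59 (adjusted p = 0.00088) and -1.82 (adjusted p = 0.00042), beside 184 of 720 features called.

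The microRNAs whose pattern was nearest over the 10 libraries were sought among 156 mature microRNAs with a mean of at least 100 CPM, by the root mean square (RMS) difference of centred log2(CPM + 1). The nearest to miR-26a-5p was miR-26b-5p (0.164), and to miR-26b-5p it was miR-26a-5p. Next came miR-10b-5p and miR-10a-5p, at 0.257 and 0.276 from miR-26a-5p and at 0.322 and 0.327 from miR-26b-5p. miR-10b-5p also belongs to the endothelial and stromal list. The nearest to miR-101a-3p was miR-101b-3p (0.191), and the reverse. miR-30e-5p and miR-872-5p followed, at 0.378 and 0.409 from miR-101a-3p and at 0.411 and 0.292 from miR-101b-3p. The median RMS difference of all candidates was 1.04 for miR-26a-5p, 1.07 for miR-26b-5p, 1.40 for miR-101a-3p and 1.49 for miR-101b-3p. The guide strands of each family thus had their closest pattern in each other, although the loci lie on different chromosomes. Their aligned sequences differ by only 2 bases (miR-26) and 1 base (miR-101). Reads of either could have been assigned to the other, and the part of this in the likeness was not tested. miR-26b-3p was not part of this search. All values share the same libraries and scaling.

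Loss of the 3'RR was compared with wt next. With NS and LPS averaged, the log2 difference of 3'RR-deficient from wt cells was 0.24 (SE 0.59) for miR-26a-5p, 0.31 (SE 0.60) for miR-26b-5p, 0.30 (SE 0.44) for miR-26b-3p, -0.50 (SE 0.84) for miR-101a-3p and -0.33 (SE 0.81) for miR-101b-3p. The adjusted p was 0.997 for all 5 by edgeR, and 0.139% of all features passed. In NS cells the values were 0.18, 0.25, 0.63, -1.0 and -0.68 in the same order, with SEs of 0.68 to 1.23. In LPS cells they were 0.30 (miR-26a-5p), 0.36 (miR-26b-5p), -0.03 (miR-26b-3p), -0.0025 (miR-101a-3p) and 0.03 (miR-101b-3p), with SEs of 0.68 to 1.22. These SEs pool the spread of NS and LPS libraries. From library 1 to library 2 of an LPS group, the miR-101 pair differed by only -0.13 to 0.42 (log2). In both conditions 0 of the 5 members and 0% of all features passed by edgeR. At an unadjusted p under 0.05 there were 9 features in NS and 15 in LPS cells, none of them a member, and DESeq2 called 1 and 2 features.

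Same-numbered NS libraries of wt and 3'RR-deficient cells were close for miR-26. 3'RR-deficient minus wt was 0.006 and 0.081 (log2) for miR-26a-5p and 0.086 and 0.108 for miR-26b-5p in libraries 1 and 2. For miR-101a-3p it was -1.28 and 0.063, and for miR-101b-3p -0.921 and -0.193. In LPS libraries the sign for miR-26a-5p differed between numbers (0.835 and -0.323). The miR-101 pair was thus lower in 3'RR-deficient NS library 1 than in wt NS library 1, and this was not seen for miR-101a-3p in the second libraries. With all libraries, the difference of -1.0 for miR-101a-3p in NS cells was smaller than its SE of 1.23. Without the second NS libraries the NS differences were 0.12 (SE 0.63) for miR-26a-5p, 0.20 (SE 0.66) for miR-26b-5p, -1.17 (SE 0.57) for miR-101a-3p and -0.81 (SE 0.56) for miR-101b-3p. Without the first they were 0.064 (SE 0.66), 0.090 (SE 0.70), 0.045 (SE 0.61) and -0.21 (SE 0.61) in that order. None of these passed the edgeR test, the adjusted p being 1 for each.

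**Figure D4:**
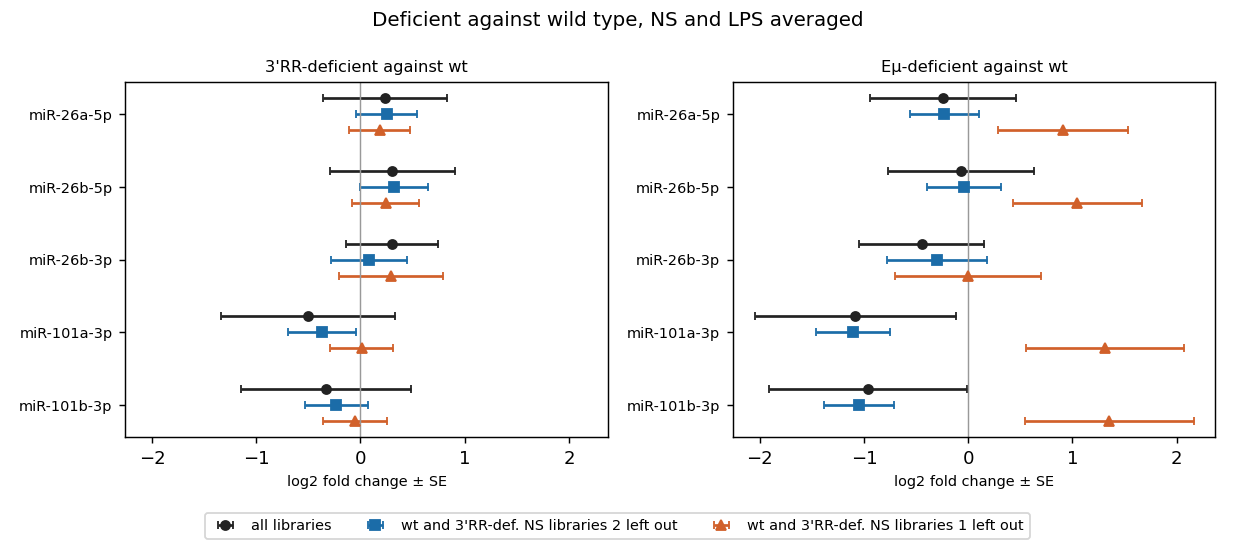
Log2 difference of 3'RR-deficient (left) and Eµ-deficient cells (right) from wt (± SE, edgeR), with NS and LPS averaged, for all libraries (circles) and without the second (squares) or first (triangles) NS libraries of wt and 3'RR-deficient cells. The Eµ-deficient value of miR-101a-3p lies at -1.08, -1.11 and 1.31.

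Loss of Eµ was compared with NS and LPS averaged, since there was 1 Eµ-deficient library per condition, and no test was run within a condition. Eµ-deficient minus wt was -0.24 (SE 0.70) for miR-26a-5p, -0.07 (SE 0.70) for miR-26b-5p, -0.45 (SE 0.60) for miR-26b-3p, -1.08 (SE 0.96) for miR-101a-3p and -0.96 (SE 0.95) for miR-101b-3p. Adjusted p-values by edgeR lay between 0.727 and 0.974, and 0 of the 5 members passed, beside 1.62% of 988 features. Against 3'RR-deficient cells the values were -0.36 (miR-26a-5p), -0.26 (miR-26b-5p), -0.68 (miR-26b-3p), -0.50 (miR-101a-3p) and -0.56 (miR-101b-3p), with 0 of 5 passing beside 2.02% of features. The comparisons share the Eµ-deficient libraries. With total count scaling the sign of the miR-26 guide strands turned, to 0.22 (miR-26a-5p) and 0.41 (miR-26b-5p) against wt, as the median of all features moved from -0.171 to 0.204. The Eµ-deficient LPS library had the lowest miR-101a-3p and miR-101b-3p of the 5 LPS libraries, and the Eµ-deficient NS library the lowest of the 3 first NS libraries. The paper cites an earlier report that the Eµ-deficient line lacks follicular B-cells. Markers of other cells differed as well. The myeloid sum was 5629 CPM in Eµ-deficient NS, against 1889 and 1450 in wt and 3'RR-deficient NS library 1, and 530.4 with LPS, against 76.7 to 141.1 in the other genotypes. The erythroid sum was 10393 CPM, against 5193 and 3424, and 4223 with LPS, against 155.6 to 1174. The endothelial and stromal sum was 2234 CPM in Eµ-deficient NS, between 2738 (wt) and 1899 (3'RR-deficient) in NS library 1, and 1538 with LPS, against 572.2 to 967.8. The microRNA share of counts was 60.2% and 51.4%, the lowest of the 10 libraries, and the part of these differences in the miR-101 values was not tested.

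Here too the NS libraries decided the value. Without the second NS libraries, Eµ-deficient minus wt was -1.11 (SE 0.36, adjusted p = 0.0648) for miR-101a-3p and -1.05 (SE 0.33, adjusted p = 0.0644) for miR-101b-3p by edgeR, under the threshold for neither. Without the first wt and 3'RR-deficient ones it was 1.31 (SE 0.76, adjusted p = 0.517) and 1.36 (SE 0.81, adjusted p = 0.525), that is, of the opposite sign. For miR-26a-5p the values were -0.23 and 0.91, and for miR-26b-5p -0.04 and 1.05. With the library number within each condition as a block, Eµ-deficient minus wt passed for miR-101a-3p (-1.29, SE 0.33, adjusted p = 0.0027) and miR-101b-3p (-1.24, SE 0.32, adjusted p = 0.0033) by edgeR, beside 105 of 988 features called against 16 of 988 without the block. Against 3'RR-deficient cells, 1 member passed in the same fit, beside 102 of 988 features. That fit sets each Eµ-deficient library beside the libraries numbered 1, and the labels do not say that equal numbers share a batch.

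Other microRNAs of the 2 regulatory settings were counted from lists. The first held 23 microRNAs known to be repressed by Myc, the transcription factor that mitogens induce in B-cells, with miR-26 itself left out. With LPS, over wt and 3'RR-deficient cells, 1 of the 23 rose and 3 fell by edgeR, and the median log2 fold change was -0.23 beside 0.07 for all features. These 4 of 23 stand beside 21.8% of all features called (95 higher and 62 lower of 720). miR-34a-5p, a microRNA that p53 induces, was 33.6 to 66.4 CPM in the 5 NS and 151.1 to 317.1 in the 5 LPS libraries, without overlap, and rose by 2.41 (SE 0.42, adjusted p = 0.00408). miR-150-5p, which restrains Myb in lymphocytes and also served as a B lymphocyte marker, was 24142 to 61853 CPM in NS and 6588 to 10319 in LPS libraries, without overlap, and changed by -2.45 (SE 0.42, adjusted p = 0.00392). The let-7 microRNAs let-7b-5p (-2.96, SE 0.63, adjusted p = 0.0096) and let-7d-5p (-1.56, SE 0.50, adjusted p = 0.0483) fell. Unlike the members, miR-34a-5p, miR-150-5p and let-7b-5p passed the edgeR test without either pair of NS libraries, with 2.46, -2.23 and -1.88 without the second and 2.29, -2.72 and -3.70 without the first, while let-7d-5p did not pass without the second (-1.04, adjusted p = 0.0876). Without the second NS libraries 1 of the 23 rose and 4 fell, with a median of -0.68 beside 0.13 for all features and 204 of 720 called. Without the first, 9 rose and 5 fell, with a median of 0.66 beside 0.28 and 308 of 720. Neither 3'RR-deficient nor Eµ-deficient cells differed from wt by the test in any of the 23, with medians of 0.17 and -0.23 beside 0.001 and -0.17 for all features.

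The second list held 11 other microRNAs known to target Ezh2, of which 9 passed the filter. Of the 11, 4 (let-7a-5p, let-7b-5p, let-7c-5p and miR-30d-5p) were also on the first list. With LPS, 0 rose and 2 fell by edgeR, let-7b-5p and miR-214-3p, and the median log2 fold change was -1.29 beside 0.07 for all features. The 2 of 9 called were again beside 21.8% of all features. Without the second NS libraries 0 rose and 2 fell, let-7b-5p and miR-138-5p (-1.80, SE 0.53, adjusted p = 0.0288), with a median of -1.06 beside 0.13 for all features and 204 of 720 called. Without the first, 1 rose, miR-98-5p (2.14, SE 0.51, adjusted p = 0.00322), and 3 fell, let-7b-5p, let-7c-5p and miR-214-3p, with a median of -0.53 beside 0.28 for all features and 308 of 720 called (miR-138-5p and miR-98-5p are named here after their values were seen). miR-214-3p, a stromal microRNA that is also on the marker list above, had 11 and 11 counts in wt NS, 2 and 27 in 3'RR-deficient NS and 0 in all 4 LPS libraries of these genotypes. Against a floor of 3 counts over those 4 LPS libraries it was at least 18.7-fold lower (adjusted p = 0.031 by edgeR), and at least 10.2-fold lower without 3'RR-deficient NS library 2, which held 27 of the 51 NS counts. The list's median could not change with it at the first bound, since its fitted value and that bound both lay below the median. Among wt and 3'RR-deficient libraries, miR-214-3p and miR-217-5p passed the filter only through NS libraries. Their fall was thus favoured in advance, and the list's count and median rest partly on them. In Eµ-deficient cells miR-214-3p had 64 counts in NS and 176 with LPS. It did not pass without the second NS libraries (adjusted p = 0.180). let-7c-5p gave a log2 change of -1.74 (SE 0.57, adjusted p = 0.05001) and miR-217-5p, on 0 to 25 counts, of -3.75 (SE 1.65, adjusted p = 0.126) by edgeR. With all libraries, none of the 9 passed in 3'RR-deficient or Eµ-deficient cells against wt, where 0.139% and 1.62% of all features did. In Eµ-deficient against wt cells, mmu-miR-214-3p was called higher by edgeR without the second (adjusted p = 0.00836) and without the first NS libraries (adjusted p = 0.0361), against an adjusted p of 0.0908 with all.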

How the data were processed

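Small RNA reads were made by the authors with the NextFlex small RNA kit V3 (17 cycles, 75 nt reads) and deposited as raw counts per feature for 10 libraries. The submitters' processing notes name cutadapt 1.2.1, Bowtie2 and mm10; the counting program and its treatment of multi-mapping reads are not given in the sources used here. The paper describes total RNA of such mice, and its Eµ line was taken as the one used. Labels give the LPS dose also as mg/ml; the sample characteristics were used. Members and lists were chosen with earlier results of these data known. The named microRNAs were the members, the other rows of their loci, the 4 list members with the smallest p for LPS and the 3 nearest patterns.

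Counts of the microRNA class were scaled by TMM, filtered with filterByExpr and fitted with edgeR 4.0.16 (limma 3.58.1, R 4.3.3) by quasi-likelihood, with 1 mean per group over the 8 wt and 3'RR-deficient libraries or additive genotype and stimulation terms. The biological coefficient of variation was 72.4%. Alternatives were total count and DESeq2 1.42.0 size factors, DESeq2's Wald test, filters, features, a GC offset, replicate blocks and left-out libraries. Leaving out both NS libraries of 1 number was chosen after seeing the data. Ratios added 0.5 counts. Scripts were tested on simulated data. p-values measure only the spread between these libraries of pooled mice. Sequences were RefSeq; coordinates of 10 of 10 mature rows equalled GRCm38.p6.

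Same-numbered libraries were checked for pairing by correlating their deviations; r was 0.649 for the NS and 0.11 for the LPS pair but -0.279 to -0.053 between NS and LPS, so the numbers were not used to pair libraries.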

Additional observations from a re-analysis of the deposited data

How the results depend on the processing

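The guide strands had at least 509 counts in every library, and the second NS libraries, which stood apart, were also the shallowest. With 2 libraries per group, 1 for Eµ-deficient cells, and no batch in the labels, the cause of the difference between NS libraries was not tested. Over 1000 member values, 866 kept their direction and their side of the threshold, 26 newly passed and 108 changed sign. In each case the cause was not tested.

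Leaving out both first or both second NS libraries was chosen after seeing the data. Without the first, the LPS response of miR-26a-5p and miR-26b-5p turned to 0.51 and 0.46 averaged, 0.42 and 0.35 in wt (miR-26b-3p 0.05) and 0.60 and 0.58 in 3'RR-deficient cells. Eµ-deficient minus wt turned to 0.91, 1.05, 1.31 and 1.36 and minus 3'RR-deficient to 0.66, 0.74, 1.28 and 1.35 (miR-26a-5p, miR-26b-5p, miR-101a-3p, miR-101b-3p). 3'RR-deficient minus wt for miR-101a-3p became 0.045 in NS and 0.011 averaged, and the difference of responses -0.0504. Without the second, miR-101a-3p turned to -0.22 with LPS averaged and -0.78 in wt (miR-101b-3p -0.23), and its 3'RR-deficient minus wt in LPS cells to 0.025. Features called without the second and the first were 69 and 166 for LPS in 3'RR-deficient cells, 87 and 207 in wt, 308 averaged without the first, 83 and 35 for Eµ-deficient against 3'RR-deficient, 79 and 38 against wt, and 2 and 2 for 3'RR-deficient against wt averaged and in LPS cells. Members called were 2 in the averaged response either way (beside 204 of 720 features without the second), and 2 without the first in each genotype. The median of the Ezh2 list with LPS became -0.53 without the first, and that of the Myc list 0.66 with LPS and 0.51 in Eµ-deficient against wt.

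With total count scaling, Eµ-deficient minus 3'RR-deficient became 0.091, 0.21, 0.057 and 0.0072, and minus wt 0.22 and 0.41 for miR-26; miR-101b-3p in LPS cells became -0.17. With a 10 CPM filter the signs of miR-26b-5p against 3'RR-deficient (0.039), miR-26a-5p and miR-26b-5p against wt (0.061 and 0.24) and miR-101b-3p in LPS cells (-0.0025) turned. miR-26b-5p against wt was 0.15 with all features scaled together, 0.10 by DESeq2 size factors and Wald test (0.098) and with no filter, and 0.14 with mature microRNAs alone. 3'RR-deficient minus wt for miR-26a-5p in NS cells was -0.039 by both DESeq2 settings and -0.0084 with all 10 libraries. In LPS cells miR-26b-3p was 0.034 with all features and 0.016 with no filter, miR-101a-3p 0.023 with all 10 libraries and 0.068 with no filter, and miR-101b-3p -0.028 with all features. With all features, the LPS response of miR-101a-3p was -0.21 averaged and -0.64 in wt (miR-101b-3p -0.12).

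By DESeq2, features called were 2, 2 and 1 for 3'RR-deficient against wt averaged, in LPS and in NS cells, 70 and 55 for Eµ-deficient against 3'RR-deficient and wt, and 90, 98 and 247 for LPS in 3'RR-deficient, wt and averaged. For LPS in 3'RR-deficient cells, 15 passed with a 10 CPM filter, 20 with all 10 libraries, 0 with all features, 31 with no filter and 29 with the GC offset. For LPS in wt cells, 20 passed with all 10 libraries, 0 with all features, 48 with the GC offset, 3 with mature microRNAs alone, 50 with no filter and 10 with total count scaling. For Eµ-deficient against 3'RR-deficient and wt, 164 and 156 passed with all features and 45 and 47 with no filter, 8 against 3'RR-deficient with mature microRNAs alone and 28 against wt with total count scaling. The GC offset gave 2 for 3'RR-deficient against wt and 2 members called in the averaged LPS response, beside 147 of 497 features.

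The replicate numbers did not pair the libraries across conditions. The replicate block turned the difference of responses to -0.0496 (miR-26a-5p) and -0.0398 (miR-26b-5p) and miR-101a-3p in LPS cells to 0.15, with 11 and 27 features called for LPS in 3'RR-deficient and wt cells. A replicate block within condition, which lets NS and LPS numbers differ, gave for LPS -1.59 (edgeR adjusted p = 0.00088) for miR-26a-5p, -1.82 (adjusted p = 0.00042) for miR-26b-5p and -0.32 for miR-101a-3p averaged, -0.54 and -0.17 for the miR-101 pair in wt and -0.028 for miR-101a-3p in 3'RR-deficient cells. Eµ-deficient minus wt was -1.29 (edgeR adjusted p = 0.0027) for miR-101a-3p and -1.24 (adjusted p = 0.0033) for miR-101b-3p. Features called with this block were 7, 2 and 1 for 3'RR-deficient against wt averaged, in LPS and in NS cells, 102 and 105 for Eµ-deficient against 3'RR-deficient and wt (members 1 and 2), and 90 and 99 for LPS in 3'RR-deficient and wt cells (members 2 in each and averaged, the latter beside 184 of 720 features). With the GC offset and the block they were 10, 5 and 1, 68 and 66 (members 1 and 2), and 54 and 73 (members 1 and 1, averaged 2 beside 127 of 497 features), with -0.17 for miR-101a-3p in wt.

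Leaving out 1 library at a time gave 77 to 161 features called for LPS averaged, 0 to 28 in 3'RR-deficient and 0 to 35 in wt cells, 0 to 1 for 3'RR-deficient against wt, and 0 to 42 and 1 to 33 for Eµ-deficient against 3'RR-deficient and wt. The averaged LPS response then kept its sign but ran from -1.35 to -0.32 (miR-26a-5p), -1.38 to -0.35 (miR-26b-5p), -0.91 to -0.60 (miR-26b-3p), 0.11 to 2.05 (miR-101a-3p) and 0.51 to 2.27 (miR-101b-3p). In wt it ran from -1.63 to 0.48 (miR-26a-5p), -1.65 to 0.40 (miR-26b-5p), -0.72 to 0.11 (miR-26b-3p), -0.72 to 3.61 (miR-101a-3p) and -0.17 to 3.81 (miR-101b-3p). In 3'RR-deficient cells it ran from -1.65 to 0.74 (miR-26a-5p), -1.67 to 0.70 (miR-26b-5p), -1.38 to -0.83 (miR-26b-3p), 0.29 to 3.59 (miR-101a-3p) and 0.51 to 4.07 (miR-101b-3p). 3'RR-deficient minus wt in NS cells ran from -1.37 to 1.59, -1.30 to 1.61, -3.38 to 2.40 and -3.31 to 2.39 (miR-26a-5p, miR-26b-5p, miR-101a-3p, miR-101b-3p), averaged from -0.32 to 0.78, -0.25 to 0.83, -1.09 to 0.84 and -1.05 to 0.85, and the difference of responses from -1.30 to 1.67, -1.25 to 1.66, -2.40 to 3.38 and -2.36 to 3.34. In LPS cells it ran from -0.069 to 0.99 (miR-26b-5p), -0.37 to 0.28 (miR-26b-3p), -0.22 to 0.20 (miR-101a-3p) and -0.20 to 0.25 (miR-101b-3p). Eµ-deficient minus 3'RR-deficient ran from -0.69 to 0.31, -0.57 to 0.42, -0.91 to 0.15 and -0.997 to 0.18, and minus wt from -0.54 to 0.58, -0.36 to 0.74, -1.45 to 0.54 and -1.41 to 0.49.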
